A study of Mus musculus with 79 samples.

Results

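Imprinted genes are expressed mainly or only from the chromosome copy inherited from a single parent, because methylation laid down in the egg or the sperm sets the parental copies apart. They lie in clusters in which a shared control region sets the state of several neighbours, and many of them act in growth, in metabolism and in the development and signalling of neurons. Some are imprinted in the brain only, or in a single isoform. The genes described here are 45 mouse genes known to lie in imprinted domains, chosen by name with earlier results of these data known. Of them 42 were present among the 25899 genes of the deposited expression table. Rian, Mirg and Peg13, noncoding RNAs of the Dlk1-Dio3 and Trappc9 domains, have no row in that table. Of the 42 genes, 23 are known as paternally expressed, 8 as maternally expressed, and 11 have imprinting that depends on tissue or isoform. The expression values here sum both parental copies, so they say nothing on allelic use.

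The values were CPM (read counts scaled to library size) of ribosome-bound mRNA in 79 mouse brain libraries. All mice carried a BAC transgene, heterozygous on a C57BL/6J background, that put enhanced green fluorescent protein on the N-terminus of ribosomal protein L10a. The transgene was driven by the promoter of the dopamine D1a or the D2 receptor gene, so tagged ribosomes come from whichever cells use that promoter, and their mRNA is pulled down with an antibody. There were 5 groups. Dorsal striatum gave 15 D1 and 16 D2 libraries, ventral striatum (the nucleus accumbens) gave 15 D1 and 14 D2 libraries, and prefrontal cortex gave 19 D1 libraries. Each library pooled tissue of 3 mice, with both sexes in all 77 pools whose label gives the sex of each mouse. The label leaves it unknown for most mice of 2 prefrontal cortex pools. No drug or other treatment is described, the age is not given in the sources used here, and nothing says whether the regions were dissected from shared mice. P-values therefore measure the spread between libraries.

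Reads in listed genes ran from 7.35 to 30.8 M per library, and 1 read was worth at most 0.0466 CPM. Summed over Drd1a, Pdyn, Tac1 and Eya1, D1 markers ran from 470 to 823 CPM in the D1 striatal groups and from 19.1 to 96.6 CPM in the D2 striatal groups. In D1 prefrontal cortex the same sum was 29.5 to 122 CPM, a range that overlaps that of the D2 libraries. Markers of cortical glutamatergic neurons (Slc17a7, Neurod6, Neurod2 and Tbr1) summed to 448 to 772 CPM in prefrontal cortex. In dorsal striatum that sum had a median of 78.9 CPM in D1 and 6.10 CPM in D2 libraries, and in ventral striatum 53.4 CPM in D1 and 9.21 CPM in D2. D2 ventral striatum replicate 2 stood apart with 66.4 CPM. Library names begin with 4 letter codes of unstated meaning. EM libraries made up 11, 8, 11, 8 and 15 of the groups in the order above, and OdP libraries were in the D2 groups apart from 1. In pulled-down RNA from tissue, fewer cells of a type and less RNA per cell cannot be told apart.

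Promoter sequences are shown for 4 genes because Dlk1 and Nnat had, with Peg10, the largest dorsal to ventral differences below, and because Usp29 and Nap1l5 each sit beside or inside another listed gene that moved less. The windows are RefSeq's (GRCm38.p6), 250 bases before to 50 after a gene's start, each 300 bases long. Capitals mark TGCCGC or, on the other strand, GCGGCA, the hexamer bound by ZFP57, the zinc finger protein that keeps imprint methylation in place after fertilisation.
Dlk1, chr12:109452573-109452872, plus strand: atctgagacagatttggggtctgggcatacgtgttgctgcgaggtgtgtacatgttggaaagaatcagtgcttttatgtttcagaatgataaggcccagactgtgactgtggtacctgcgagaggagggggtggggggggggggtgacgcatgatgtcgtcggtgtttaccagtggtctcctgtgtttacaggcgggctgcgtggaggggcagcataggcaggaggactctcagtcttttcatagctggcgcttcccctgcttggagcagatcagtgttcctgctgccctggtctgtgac
Nnat, chr2:157559828-157560127, plus strand: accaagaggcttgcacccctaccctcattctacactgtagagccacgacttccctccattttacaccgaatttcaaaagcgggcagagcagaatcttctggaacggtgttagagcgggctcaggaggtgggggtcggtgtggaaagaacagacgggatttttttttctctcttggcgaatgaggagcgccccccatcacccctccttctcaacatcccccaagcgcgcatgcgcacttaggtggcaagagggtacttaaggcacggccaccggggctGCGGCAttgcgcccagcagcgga
Nap1l5, chr6:58907077-58907376, minus strand: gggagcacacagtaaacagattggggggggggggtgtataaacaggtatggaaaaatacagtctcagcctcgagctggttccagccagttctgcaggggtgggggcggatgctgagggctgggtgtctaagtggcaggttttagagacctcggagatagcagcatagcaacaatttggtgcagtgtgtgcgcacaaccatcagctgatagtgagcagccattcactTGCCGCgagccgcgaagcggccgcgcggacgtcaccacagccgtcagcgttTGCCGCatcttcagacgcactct
Usp29, chr7:6730333-6730632, plus strand: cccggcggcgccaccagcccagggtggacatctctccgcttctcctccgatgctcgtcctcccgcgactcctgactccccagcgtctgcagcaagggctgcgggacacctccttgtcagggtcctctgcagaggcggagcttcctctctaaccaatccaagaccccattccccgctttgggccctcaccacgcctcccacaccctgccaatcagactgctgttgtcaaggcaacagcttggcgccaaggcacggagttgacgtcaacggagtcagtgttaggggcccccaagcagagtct

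Windows were read for 37 of the 45 listed genes, Rian and Mirg included, 57 windows in all. Any window on chromosome 18, where Impact lies, was left out. The hexamer was in 14 of the 57 (24.6%) and in 11.6% of all 32851 windows of the table. Snrpn and Snurf have the same window, and both windows of Mest with a match nearly coincide, so the 14 are not separate stretches of sequence. The median number of CpG dinucleotides was 14 in windows of the listed genes and 7 in all windows. Nap1l5 held 2 matches and 17 CpGs, Nnat 1 match and 17 CpGs, Usp29 0 matches and 17 CpGs, and Dlk1 0 matches and 9 CpGs. The Usp29 window overlaps the Peg3 window (chr7:6730370-6730669, minus strand), since these genes start 147 bases apart on opposite strands. A match is a description of the letters and not a binding site.

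Levels differed widely among the 42 genes. Divided by the length of their exons, Snrpn, which encodes the neuronal splicing protein SmN, was at 184 to 276 CPM per kilobase in the group means, above the other genes with exons of their own. Snurf, the short upstream reading frame of the same transcript, lies wholly within exons of Snrpn, so reads of these genes cannot be told apart reliably. In D1 ventral striatum Nnat followed at 77.3 CPM per kilobase, then Nap1l5 at 43.98 and Peg3 at 31.9. In D1 dorsal striatum Nap1l5 was at 23.8, Peg3 at 23.1 and the neurabin gene Ppp1r9a at 20.8 CPM per kilobase. At the other end Phlda2, a placental growth regulator, had 0 reads in every library. H19, the noncoding partner of Igf2, had reads in 3 of 14 D2 ventral striatum and 7 of 19 prefrontal cortex libraries and in no other library.

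Each comparison was tested with limma on log2(CPM + 0.5) over every gene with at least 1 CPM in enough libraries, and a gene is called here when its Benjamini-Hochberg adjusted p over all genes tested is under 0.05. Differences are on that log2 scale, first group minus second, which understates changes of low genes. Comparisons that share a group of libraries are not independent of one another.

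**Figure D1:**
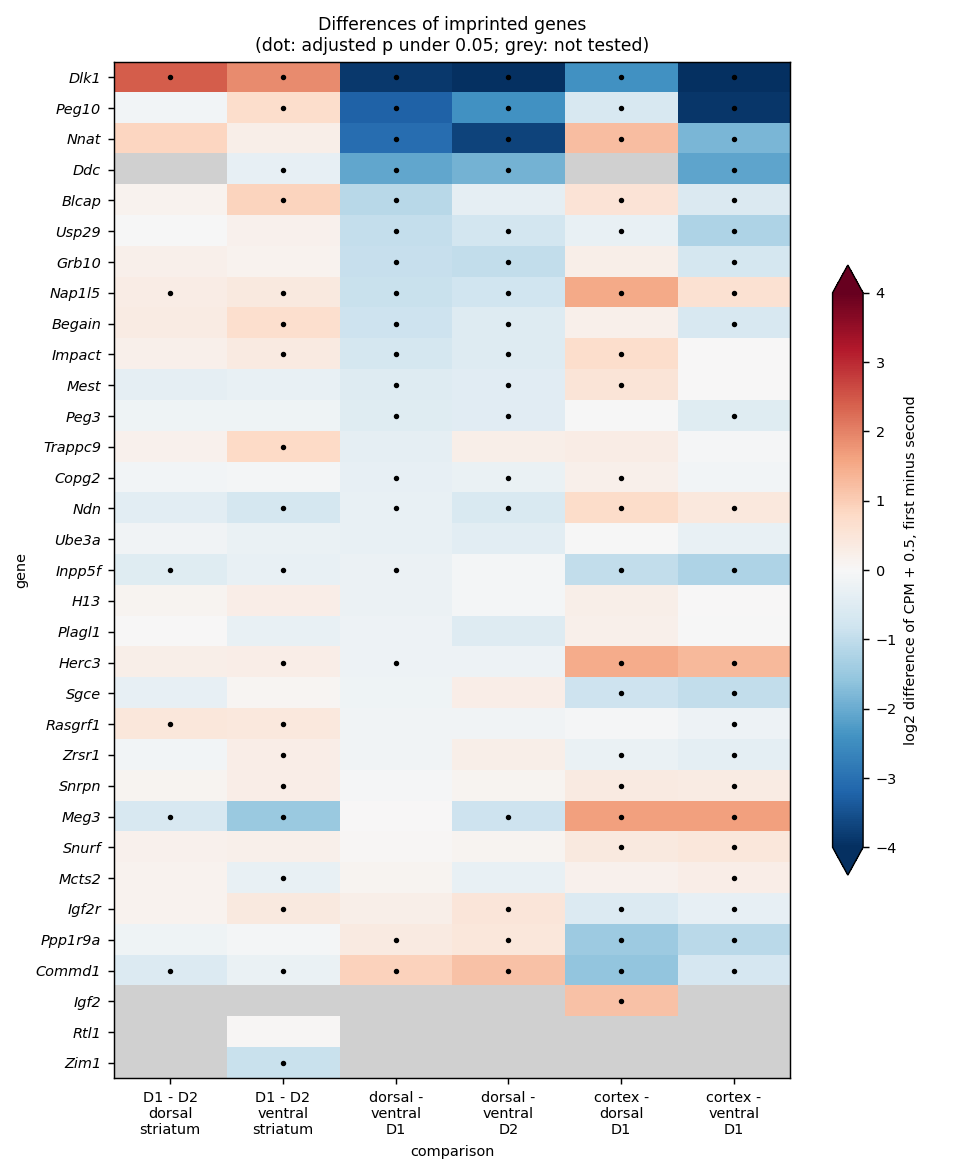
Log2 differences of CPM + 0.5 (colour, first group minus second, cut at 4 in either direction) for the 33 imprinted genes tested in at least 1 of the 6 comparisons between groups; rows are genes ordered by the D1 dorsal minus ventral difference, dots mark adjusted p under 0.05 and grey marks genes below the expression filter. The upper rows are blue in both dorsal minus ventral columns, with Dlk1, Peg10 and Nnat the deepest, while Commd1 and Ppp1r9a at the lower end are red.

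Between dorsal and ventral striatum the called differences ran mostly one way. In D1 libraries 18 of 30 imprinted genes tested were called, 16 lower and 2 higher in dorsal striatum. Over all 11332 genes tested 34.6% were called, 24.5% lower and 10.1% higher. In D2 libraries 17 of 30 were called, 14 lower and 3 higher in dorsal striatum, against 28.5% of all 11187 genes, 20.6% lower and 7.93% higher. The median difference of the imprinted genes was -0.30 in D1 and -0.39 in D2, against -0.12 for all genes in each receptor. Of the 30 genes tested in both receptors 15 were called in both, which is 15 of the 18 in D1 and 15 of the 17 in D2. Of these 15, 13 were lower and 2 higher in dorsal striatum in both receptors. Over all 10956 genes tested in both receptors 2015 were called in both, which is 51.4% of the genes called in D1 and 63.2% of those called in D2. The lower genes include Ddc in both receptors and Dlk1 in D2, which passed the expression filter only through the ventral libraries and so had to differ.

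The direction of the smaller differences depended on the scaling. Median-ratio scaling, which sets the typical gene to no change, moved the median of all genes from -0.12 to -0.01 in D1 and to -0.004 in D2. Its calls over all genes split into 14.8% higher and 14.2% lower in D1, and 12.1% and 12.3% in D2. For the imprinted genes it gave 13 lower and 3 higher in D1, with Ndn, Inpp5f and Herc3 no longer called and Igf2r called. In D2 it gave 10 lower and 4 higher, with Begain, Copg2, Mest and Ndn no longer called and Zrsr1 called. edgeR with TMM scaling on the recovered reads gave 13 lower and 3 higher in D1, beside 13.2% and 15.4% of all genes, and 10 lower and 5 higher in D2, beside 11.8% and 12.1%.

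Markers of other cells moved with region too, and their part in the differences of the imprinted genes was not tested. Interneuron markers (Sst, Npy, Pvalb and Vip) summed to 13.1 to 55.9 CPM in D1 dorsal and 5.82 to 33.3 CPM in D1 ventral striatum, and 3 of 3 tested were higher in dorsal striatum. In D2 these sums were 3.20 to 22.9 and 5.98 to 25.5 CPM, and 2 of 3 were lower. In D2 2 of 3 cholinergic markers (Chat, Slc5a7 and Lhx8) were lower in dorsal striatum, with sums of 2.89 to 14.2 against 6.63 to 15.1 CPM. Markers of neighbouring basal forebrain summed to 4.21 to 13.6 against 4.83 to 19.0 CPM in D2, and 1 of 2 was lower. Choroid plexus markers (Ttr, Kl, Folr1 and Kcne2, the last pair at a median of 0 CPM) summed to 0.589 to 41.5 CPM in D1 dorsal and 2.61 to 5.20 CPM in D1 ventral striatum, where Kl, the gene tested, was lower in dorsal striatum (-1.36). In D2 these sums were 1.33 to 37.6 and 2.41 to 5.97 CPM, with Ttr higher (2.98) and Kl lower (-0.94) in dorsal striatum. D2 markers (Drd2, Penk, Adora2a and Gpr6) summed to 36.7 to 95.4 CPM in D1 dorsal and 101 to 243 CPM in D1 ventral striatum. In the D2 groups they summed to 2563 to 4510 CPM in dorsal and 1530 to 2728 CPM in ventral striatum.

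Dlk1 encodes a transmembrane protein related to the Notch ligands and is best known for holding precursor cells undifferentiated. It ran from 36.4 to 116 CPM in D1 ventral striatum (median 57.9) and from 11.1 to 28.0 CPM in D2 ventral striatum (median 17.2). In dorsal striatum it ran from 1.17 to 9.14 CPM in D1 (median 4.04) and from 0 to 1.40 CPM in D2 (median 0.32). In prefrontal cortex it was 0.0163 to 1.71 CPM (median 0.263). Every ventral library was above every dorsal library of the same receptor, and D1 dorsal libraries were above D2 dorsal libraries apart from 1 in each group. Dorsal minus ventral was -3.85 in D1 (SE 0.20, adjusted p = 5.70e-17, limma) and -4.38 in D2 (SE 0.16). In D2 the gene passed the expression filter only through the ventral libraries, so it had to differ there.

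Meg3, the maternally expressed noncoding RNA of the same domain, starts 88178 bases from Dlk1 (chr12:109541001-109571726 against chr12:109452823-109463336). Its D1 medians were 40.5 CPM in dorsal and 34.7 CPM in ventral striatum, and the ranges of 24.0 to 133 and 22.6 to 163 CPM overlapped almost wholly. The D1 dorsal minus ventral difference was 0.01 (SE 0.23, adjusted p = 0.984, limma). In D2 it was lower in dorsal striatum, 39.1 to 134 CPM (median 69.4) against 64.8 to 181 CPM (median 130.2), a difference of -0.84 (SE 0.17, adjusted p = 0.000173, limma). Begain, which encodes a partner of the postsynaptic scaffold PSD-95, lies on the other side of Dlk1. It was lower in dorsal striatum in D1 (-0.83, SE 0.15, adjusted p = 2.86e-05, limma), and in D2 the call was weak (-0.50, SE 0.19, adjusted p = 0.0454, limma) and was lost without D2 ventral striatum replicate 2 (-0.45, adjusted p = 0.0822) and in EM libraries (-0.67, adjusted p = 0.137).

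Rtl1, which follows Meg3 on the opposite strand, and Dio3, at the far end of that domain, were too low for most tests. Dio3, the deiodinase that inactivates thyroid hormone, was at 0.605 to 2.41 CPM in D1 ventral striatum (median 1.28) and at most 1.32 CPM in any library of the other groups. All D1 ventral libraries were above all D1 dorsal libraries, of which the highest had 0.393 CPM. Rtl1, a gene derived from a retrotransposon, had medians of 1.10 and 1.16 CPM in D1 and D2 ventral striatum and of 0.272, 0.359 and 0.445 CPM in D1 dorsal striatum, D2 dorsal striatum and prefrontal cortex. Its ranges overlapped among all groups.

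**Figure D2:**
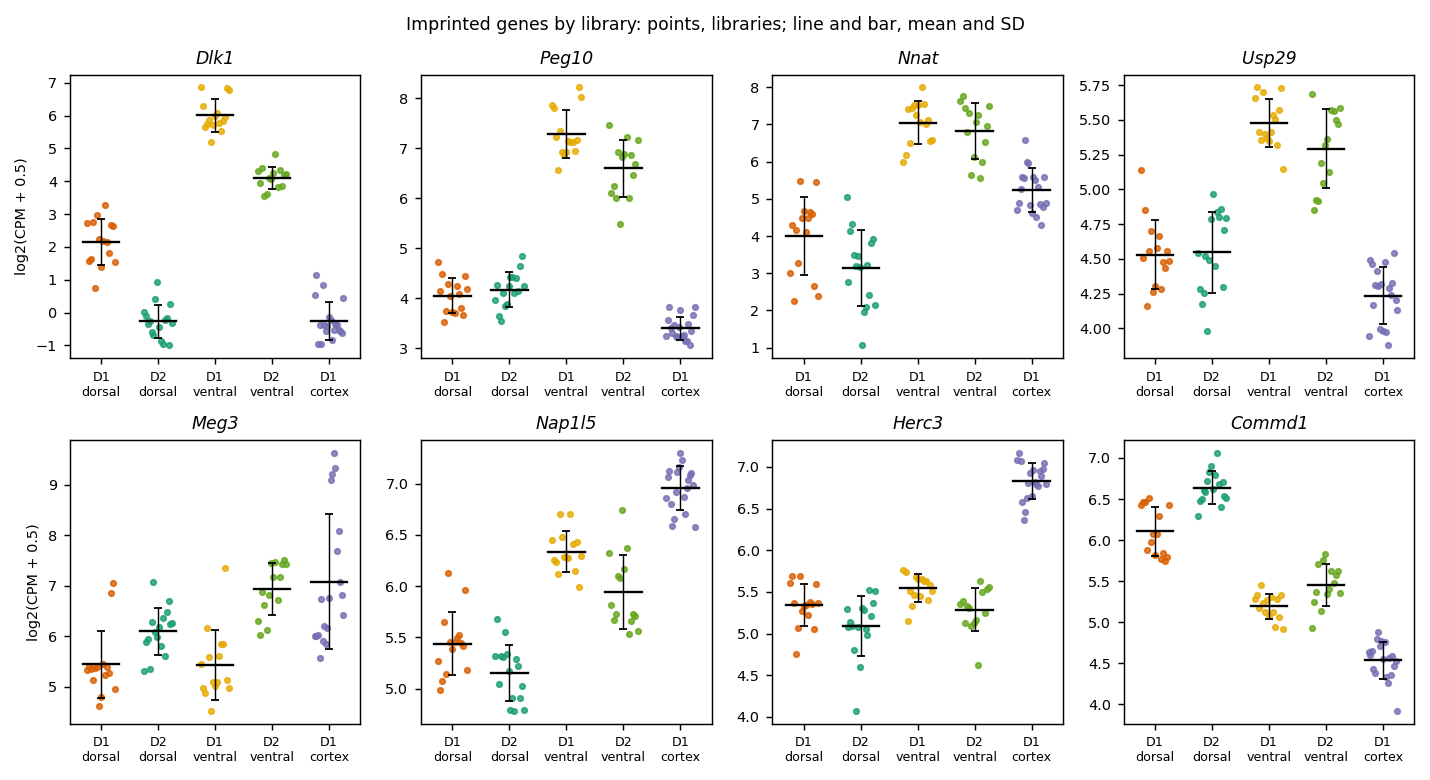
Log2(CPM + 0.5) of 8 imprinted genes in each library (points) of the 5 groups, with the group mean (line) and SD (bar); each panel has its own y axis. For Dlk1, Peg10 and Nnat the ventral striatum points lie above all dorsal striatum points of the same receptor, for Commd1 they lie below them, and Nap1l5 and Herc3 are highest in prefrontal cortex.

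Peg10, another gene of retrotransposon origin, which encodes a Gag-like protein, was the next in size in D1. Its libraries ran from 94.3 to 296 CPM in D1 ventral striatum (median 140.8) and from 44.0 to 175 CPM in D2 ventral striatum (median 107). In dorsal striatum they ran from 11 to 25.9 CPM in D1 (median 16.4) and from 11.2 to 28.0 CPM in D2 (median 17.7). In prefrontal cortex they ran from 7.81 to 13.6 CPM (median 9.63). No dorsal library reached a ventral one. Dorsal minus ventral was -3.23 in D1 (SE 0.14, adjusted p = 6.05e-19, limma) and -2.42 in D2 (SE 0.16, adjusted p = 1.51e-14, limma).

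Of the neighbours of Peg10 that were tested, Sgce was not called between these regions by limma without a covariate and Ppp1r9a was higher in dorsal striatum. Sgce, the epsilon-sarcoglycan gene mutated in myoclonus-dystonia, starts 99 bases away on the opposite strand (Peg10 at chr6:4747306-4760517, Sgce at chr6:4674350-4747207). Sgce medians in the striatal groups were 5.99 to 7.01 CPM, and its dorsal minus ventral difference was -0.17 in D1 (SE 0.11, adjusted p = 0.264, limma) and 0.25 in D2 (SE 0.14, adjusted p = 0.185, limma). In D2 it was called higher in dorsal striatum with the share of reads that fall in genes as covariate (0.38, adjusted p = 0.0222) and in edgeR (0.41, adjusted p = 0.0447). Ppp1r9a, on the far side, encodes neurabin, an actin-binding scaffold of dendritic spines. It was higher in dorsal striatum, by 0.36 in D1 (SE 0.083, adjusted p = 0.000774, limma) and 0.44 in D2 (SE 0.097, adjusted p = 0.000607, limma), with overlapping ranges of 232 to 371 and 175 to 312 CPM in D1. Asb4, a SOCS-box protein gene at the end of the cluster, was low, with medians of 0.968 and 0.696 CPM in D1 and D2 ventral striatum and at most 0.437 CPM in any dorsal or cortical library. Without the expression filter Asb4 was lower in dorsal striatum, as Peg10 was, by its differences of -1.34 in D1 (adjusted p = 5.19e-09, limma) and -1.09 in D2 (adjusted p = 2.50e-07, limma).

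Nnat encodes neuronatin, a small membrane protein of neuroendocrine cells and neurons that acts on calcium handling. It ran from 63.6 to 254 CPM in D1 ventral striatum (median 137) and from 46.5 to 217 CPM in D2 ventral striatum (median 129). In dorsal striatum it ran from 4.26 to 44.4 CPM in D1 (median 19.3) and from 1.58 to 32.8 CPM in D2 (median 8.71). Dorsal and ventral libraries did not overlap within either receptor, although the dorsal groups were uneven, the D1 mean being 19.3 ± 12.5 CPM (SD, n = 15) and the D2 mean 10.5 ± 7.86 CPM (SD, n = 16). The difference was -3.05 in D1 (SE 0.28, adjusted p = 7.00e-11, limma) and -3.69 in D2 (SE 0.30, adjusted p = 3.36e-12, limma).

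Nnat lies inside Blcap, a gene of a small membrane protein transcribed from the opposite strand (Nnat at chr2:157560078-157562522 within Blcap at chr2:157556362-157571274). Blcap was called lower in dorsal striatum in D1. Its D1 libraries ran from 3.86 to 20.6 CPM in dorsal and from 22.4 to 37.3 CPM in ventral striatum without overlap, a difference of -1.11 (SE 0.14, adjusted p = 6.71e-08, limma). In D2 the ranges of 7.49 to 18.4 and 6.88 to 25.2 CPM overlapped and the difference of -0.37 (SE 0.16, adjusted p = 0.0714, limma) was not called, although it was once the share of reads that fall in genes entered as a covariate (-0.57, adjusted p = 0.000482). The difference between these differences was tested in the 4 striatal groups and is given with the receptor comparisons below.

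Peg3, a zinc finger gene known for its part in maternal behaviour and growth, and Usp29, of a deubiquitinase family, start 147 bases apart and are transcribed away from each other. Both were lower in dorsal striatum. Peg3 medians were 316 and 409 CPM in D1 dorsal and ventral striatum and 346 and 495 CPM in D2, a difference of -0.47 in D1 (SE 0.088, adjusted p = 6.27e-05, limma) and -0.47 in D2 (SE 0.094, adjusted p = 0.000200, limma). Usp29 ran from 17.4 to 34.8 CPM in D1 dorsal and from 34.9 to 52.7 CPM in D1 ventral striatum, so these groups did not overlap. Its difference was -0.95 in D1 (SE 0.082, adjusted p = 1.79e-11, limma) and -0.75 in D2 (SE 0.11, adjusted p = 1.48e-06, limma). Zim1, the maternally expressed zinc finger gene of this domain, was low, with its highest median of 2.13 CPM in D2 ventral striatum and medians of 0.255 to 0.971 CPM elsewhere.

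**Figure D3:**
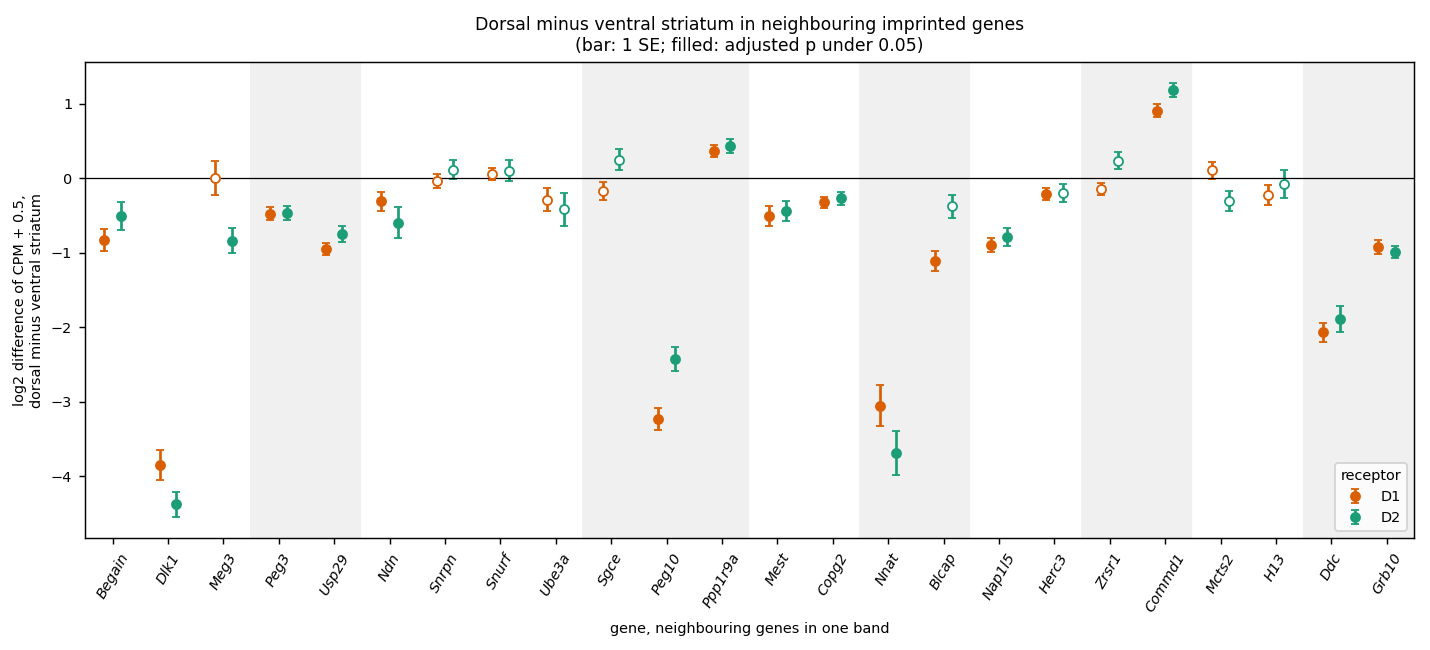
Dorsal minus ventral striatum difference of log2(CPM + 0.5) with its SE for neighbouring imprinted genes, in D1 (orange) and D2 (green); shaded and white bands hold genes of the same locus, and filled points have adjusted p under 0.05. Within a band the genes often sit apart: Peg10 is at -3.23 and -2.42 while Sgce is at -0.17 and 0.25, and Dlk1 is at -3.85 and -4.38 while Meg3 is at 0.01 and -0.84.

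Grb10, an adaptor that dampens insulin receptor signalling and is expressed from the paternal copy in neurons, was lower in dorsal striatum. It ran from 20.5 to 52.6 CPM in D1 dorsal and from 45.7 to 71.4 CPM in D1 ventral striatum. The D2 groups, at 19.6 to 34.6 and 41.5 to 59.5 CPM, did not overlap. The difference was -0.92 in D1 (SE 0.095, adjusted p = 1.21e-09, limma) and -0.99 in D2 (SE 0.082, adjusted p = 5.11e-12, limma). Its neighbour Ddc encodes the decarboxylase that makes dopamine and serotonin from their precursors. Ddc was low, 1.70 to 3.61 and 1.77 to 6.06 CPM in D1 and D2 ventral striatum against at most 0.635 and 1.57 CPM in dorsal striatum, with no overlap, and it passed the filter only through the ventral groups, so it had to differ. The difference was -2.06 in D1 (SE 0.13) and -1.89 in D2 (SE 0.17). Markers of dopamine neurons (Th, Slc6a3, Slc18a2 and Aldh1a1) summed to medians of 6.50 and 4.75 CPM in D1 dorsal and ventral striatum and 2.66 and 4.98 CPM in D2, with Slc6a3 at a median of 0 CPM in both dorsal groups. Their part in the Ddc difference was not tested.

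Nap1l5, which resembles nucleosome assembly proteins, lies inside Herc3, a ubiquitin ligase gene, on the opposite strand (chr6:58905233-58907076 within chr6:58831465-58920398). Nap1l5 was lower in dorsal striatum in both receptors. It ran from 31.1 to 69.6 CPM in D1 dorsal and from 63.3 to 104 CPM in D1 ventral striatum, a difference of -0.90 (SE 0.094, adjusted p = 1.70e-09, limma), and in D2 the difference was -0.79 (SE 0.12, adjusted p = 1.84e-06, limma). Herc3 medians were 40.3 and 47.4 CPM in D1, a difference of -0.21 (SE 0.082, adjusted p = 0.0480, limma) that is -0.09 relative to the median of all genes and was lost under median-ratio scaling and in EM libraries (-0.23, adjusted p = 0.0650). In D2 the Herc3 difference was -0.20 (SE 0.12, adjusted p = 0.217, limma).

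Commd1 went the other way. It encodes a protein of copper handling and endosomal sorting, and the paternally expressed splicing factor gene Zrsr1 lies inside it on the opposite strand (chr11:22972005-22976496 within chr11:22896136-22982382). Commd1 ran from 53.0 to 90.7 CPM in D1 dorsal and from 29.7 to 43.4 CPM in D1 ventral striatum. In D2 it ran from 78.0 to 133 CPM in dorsal and from 29.9 to 56.4 CPM in ventral striatum. Neither pair of ranges overlapped, and the difference was 0.91 in D1 (SE 0.088, adjusted p = 2.26e-10, limma) and 1.19 in D2 (SE 0.090, adjusted p = 7.02e-13, limma). Zrsr1, with medians of 44.3 to 56.4 CPM in the striatum, was not called in either receptor (-0.14, adjusted p = 0.169 in D1 and 0.24, adjusted p = 0.129 in D2, limma). In D2 it was called higher in dorsal striatum with the share covariate (0.39, adjusted p = 0.00192), scaled to reads in genes (0.28, adjusted p = 0.0415), under median-ratio scaling (0.36, adjusted p = 0.0249) and in edgeR (0.38, adjusted p = 0.0229). These genes share 412 exonic bases, and no source used here states that counting used the strand.

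Smaller differences in the same direction in both receptors were seen for Impact, Mest, Copg2 and Ndn. Impact, an inhibitor of the translation-control kinase GCN2, was at medians of 82.1 and 135 CPM in D1 dorsal and ventral striatum (-0.69, SE 0.095, adjusted p = 4.49e-07, limma) and 69.8 and 92.1 CPM in D2 (-0.53, SE 0.098, adjusted p = 7.23e-05, limma). Mest, a gene of the hydrolase fold family, differed by -0.51 in D1 (SE 0.13, adjusted p = 0.00258, limma) and -0.44 in D2 (SE 0.13, adjusted p = 0.0118, limma). Its neighbour Copg2, a subunit of the COPI vesicle coat, shares 912 exonic bases with it and differed by -0.32 in D1 (SE 0.074, adjusted p = 0.000904, limma) and -0.27 in D2 (SE 0.092, adjusted p = 0.0258, limma). Ndn, which encodes necdin, a growth-suppressing protein of the MAGE family in neurons, was just inside the threshold in D1 (-0.31, SE 0.12, adjusted p = 0.0497, limma), at -0.19 relative to the median of all genes, and was not called there in EM libraries alone (-0.18, adjusted p = 0.356). In D2 it was at -0.60 (SE 0.21, adjusted p = 0.0270, limma) and -0.55 (adjusted p = 0.192) in EM libraries. The D2 calls of Mest (-0.44, adjusted p = 0.116) and Copg2 (-0.21, adjusted p = 0.343) were lost in EM libraries too, and that of Copg2 also when scaled to reads in genes (-0.22, adjusted p = 0.0604).

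Snrpn, Snurf and Ube3a, the other genes of the Prader-Willi and Angelman domain that passed the filter, were not called between regions of the striatum by limma without a covariate. Snrpn medians were 479 and 468 CPM in D1 dorsal and ventral striatum and 450.4 and 368 CPM in D2, with adjusted p of 0.792 and 0.506 (limma). Ube3a, the ubiquitin ligase gene whose maternal copy is the active one in neurons, was at medians of 18.9 and 24.9 CPM in D1 and 22.7 and 32.6 CPM in D2, with adjusted p of 0.148 and 0.161 (limma). With the name code as a covariate it was called lower in dorsal striatum, at -0.29 in D1 (adjusted p = 0.0105) and -0.43 in D2 (adjusted p = 0.0158), and with the share covariate in D1 (-0.32, adjusted p = 0.0406). Magel2, a MAGE gene, was low, with medians of 1.00 and 0.650 CPM in D1 and D2 ventral striatum and 0.106 and 0.00800 CPM in D1 and D2 dorsal striatum. Without the filter it was lower in dorsal striatum, at -1.22 in D1 (adjusted p = 1.36e-08, limma) and -0.97 in D2 (adjusted p = 0.000381, limma). Igf2r, the receptor that clears insulin-like growth factor 2, was higher in dorsal striatum in D2 (0.48, SE 0.14, adjusted p = 0.00661, limma) and not called in D1 (0.23, SE 0.12, adjusted p = 0.123, limma). The D2 call was lost in EM libraries (0.45, adjusted p = 0.125).

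By parental origin, 9 of 16 paternally expressed genes tested were lower in dorsal striatum in each receptor, beside 24.5% of all genes in D1 and 20.6% in D2. None was called higher on the deposited scale without a covariate, while the share covariate called Sgce and Zrsr1 higher in D2, scaling to the reads in genes and median-ratio scaling each called 1 higher in D2, and TMM scaling 2. The median difference of this list was -0.39 in D1 and -0.49 in D2. Of 3 maternally expressed genes tested 0 were called in D1 (Igf2r was called higher under median-ratio and TMM scaling), and in D2 Meg3 was lower and Igf2r higher in dorsal striatum. Of 11 genes with tissue-dependent or isoform-dependent imprinting 7 were lower and 2 higher in D1, and 4 were lower and 2 higher in D2, or 2 and 2 in D2 under each of the other scalings. The 2 higher genes were Commd1 and Ppp1r9a in each receptor. Among the lower genes of these lists, Dlk1 in D2 and Ddc in both receptors passed the expression filter only through the ventral libraries. They therefore had to differ, and Ddc is among the 2 lower genes left in D2 under the other scalings.

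Between the receptors in dorsal striatum the test called 6 of 29 genes, of which 3 were higher and 3 lower in D1, against 25.9% of all 11090 genes, 12.8% higher and 13% lower. Dlk1 had the widest difference at 2.43 (SE 0.21), from the values given above. It passed the filter here only through the D1 libraries, where it is high, so it had to differ. Rasgrf1, an exchange factor that activates Ras on calcium entry, ran from 108 to 230 CPM in D1 (median 185) and from 98.4 to 165 CPM in D2 (median 129). Its difference was 0.44 (SE 0.094, adjusted p = 0.000569, limma), and 10 of 15 D1 libraries were above all D2 libraries. Commd1 was lower in D1 by its difference of -0.54 (SE 0.093, adjusted p = 3.30e-05, limma), with 11 of 16 D2 libraries above all D1 libraries. Inpp5f, a phosphoinositide phosphatase gene with a brain-specific imprinted isoform, ran from 89.5 to 143 CPM in D1 and from 120.5 to 186 CPM in D2, a difference of -0.49 (SE 0.078, adjusted p = 1e-05, limma).

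The other calls in that comparison depended on the libraries used. Meg3 was lower in D1 (-0.65, SE 0.19, adjusted p = 0.00985, limma) and Nap1l5 higher (0.29, SE 0.11, adjusted p = 0.0425, limma). Within EM libraries, 11 against 8, Meg3 was at -0.48 (adjusted p = 0.303) and Nap1l5 at 0.21 (adjusted p = 0.274). OdP libraries were absent from D1 dorsal striatum, and the 8 of D2 dorsal striatum had a Meg3 median of 75.5 CPM against 62.1 CPM in its 8 EM libraries. Nnat, with medians of 19.3 and 8.71 CPM in D1 and D2, was not called (0.86, SE 0.34, adjusted p = 0.0556, limma). TMM scaling in edgeR gave 3 higher and 6 lower genes, Mest, Ndn and Sgce being added to the lower ones, beside 12.4% of all genes higher and 14.4% lower. Scaling to the reads in genes added Grb10 to the higher ones, with 15.4% of all genes higher and 10.4% lower. Markers of other cells differed here as well. Those of cortical glutamatergic neurons, with sums of 23.9 to 107 CPM in D1 and 0.928 to 27.9 CPM in D2 dorsal striatum, were higher in D1 for 4 of 4. Interneuron markers, at 13.1 to 55.9 against 3.20 to 22.9 CPM with Vip at a median of 0 CPM in D2, were higher for 3 of 3, and the 1 cholinergic marker tested was lower, the sums being 0.365 to 1.59 and 2.89 to 14.2 CPM. Their part in the differences of the imprinted genes was not tested.

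In ventral striatum 19 of 32 genes tested differed by receptor, 12 higher and 7 lower in D1. Over all 11410 genes 47.7% were called, 24.1% higher and 23.6% lower. The median difference was 0.16 for the imprinted genes and 0.02 for all genes. Scaling to the reads in genes moved the median of all genes to 0.13 and gave 14 higher and 4 lower imprinted genes, with Commd1, Ddc and Mcts2 no longer called, beside 32.4% of all genes higher and 16.6% lower. With the share of reads that fall in genes as covariate 9 were called, 7 higher and 2 lower, beside 10.7% of all genes. For ventral striatum that share was 35.1% ± 1.64 (SD, n = 15) with D1, against 38.0% ± 1.5 (SD, n = 14) with D2, so it moved with the receptor.

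Dlk1 again led, at 1.9 (SE 0.15, adjusted p = 1.56e-12, limma), and all D1 libraries were above all D2 libraries. Blcap followed among genes higher in D1 at 0.88 (SE 0.14, adjusted p = 7.83e-06, limma), with 11 of 15 D1 libraries above all D2 libraries. Trappc9, a gene of vesicle tethering whose loss causes intellectual disability, ran from 8.56 to 21.0 CPM in D1 and from 3.04 to 14.2 CPM in D2, a difference of 0.79 (SE 0.19, adjusted p = 0.000977, limma). Peg10 was higher in D1 by 0.69 (SE 0.18, adjusted p = 0.00181, limma) and Begain by 0.66 (SE 0.15, adjusted p = 0.000612, limma), each with overlapping ranges. Rasgrf1 was higher by 0.44 (SE 0.092, adjusted p = 0.000270, limma), with medians of 205 and 149.7 CPM. The other genes called higher in D1, Igf2r, Nap1l5, Impact, Snrpn, Zrsr1 and Herc3, differed by 0.26 to 0.40.

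Of these, the share covariate kept Dlk1, Blcap, Peg10, Rasgrf1, Nap1l5 and Zrsr1. It dropped Begain, Trappc9, Igf2r, Impact, Snrpn and Herc3. Zrsr1 was also lost in edgeR. Without D2 ventral striatum replicate 2, the library high in cortical markers, Zrsr1 was lost too (0.22, adjusted p = 0.0550). Mest (-0.32, adjusted p = 0.0366) and Peg3 (-0.21, adjusted p = 0.0434) were then called. In EM libraries alone 16 of 34 were called, 10 higher and 6 lower, beside 16.4% of all genes higher and 23.7% lower. Igf2r (0.22, adjusted p = 0.264), Nap1l5 (0.29, adjusted p = 0.0632), Snrpn (0.11, adjusted p = 0.530), Zrsr1 (0.32, adjusted p = 0.0576), Ddc (-0.27, adjusted p = 0.117) and Mcts2 (-0.18, adjusted p = 0.217) were then not called.

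Meg3 was the gene most clearly lower in D1 ventral striatum. It ran from 22.6 to 163 CPM in D1 (median 34.7) and from 64.8 to 181 CPM in D2 (median 130.2), and 13 of 15 D1 libraries were below all D2 libraries. The difference was -1.5 (SE 0.20, adjusted p = 5.49e-07, limma), and -1.27 (adjusted p = 0.000812) within EM libraries. Zim1 was lower in D1 by its difference of -0.90 (SE 0.22, adjusted p = 0.00137, limma), from 0.181 to 1.55 CPM in D1 and from 0.809 to 5.86 CPM in D2. Ndn was lower in D1 with -0.70 (SE 0.15, adjusted p = 0.000365, limma), and 10 of 14 D2 libraries were above all D1 libraries. The remaining genes lower in D1, Ddc, Inpp5f, Mcts2 and Commd1, differed by -0.33 to -0.26. With the share covariate Ndn (-0.49, adjusted p = 0.121), Ddc, Inpp5f, Mcts2 and Commd1 were no longer called, and Meg3 and Zim1 were.

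Markers of other cells also differed between these groups. The sum of cholinergic markers (Chat, Slc5a7 and Lhx8) had a median of 1.34 CPM in D1 and 12.2 CPM in D2 ventral striatum. Markers of neighbouring basal forebrain (Zic1, Zic2, Zic4, Nkx2-1 and Gbx1) had sums with medians of 6.41 and 12.8 CPM. All 4 cortical glutamatergic markers were higher in D1, with sums of 13.7 to 92.1 against 2.79 to 66.4 CPM. Their part in the differences of Meg3, Ndn and the other imprinted genes was not tested.

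Whether the receptor difference itself changed between regions was tested as an interaction over the 4 striatal groups. Of 32 genes, 2 were called, both with a negative value, meaning that D1 minus D2 was smaller in dorsal than in ventral striatum. Over 11873 genes 2.64% were called, 1.93% positive and 0.707% negative. Peg10 had -0.81 (SE 0.22, adjusted p = 0.0250, limma), its D1 minus D2 difference being -0.12 in dorsal and 0.69 in ventral striatum. Blcap had -0.74 (SE 0.21, adjusted p = 0.0410, limma), with 0.15 in dorsal and 0.88 in ventral striatum. Neither was called in EM libraries alone, where the values were -0.58 (adjusted p = 0.192) for Peg10 and -0.66 (adjusted p = 0.277) for Blcap. Dlk1 had 0.53 (adjusted p = 0.337, limma), but 1.47 (adjusted p = 0.0122) with a pseudocount of 0.1 and 1.56 (adjusted p = 0.00989) in edgeR, so the outcome for this gene rests on how its low D2 dorsal values are treated. By TMM scaling 1 gene was positive, Dlk1, and 1 negative, Peg10, beside 1.87% and 0.657% of all genes. Scaling to the reads in genes moved the calls over all genes to 1.61% positive and 1.00% negative, and then Peg10 and Zrsr1 were called. Markers of cell types moved in this test too. Of the D2 markers Drd2, Penk, Adora2a and Gpr6, 4 of 4 were negative, with a median of -2.01 and sums of 36.7 to 95.4 CPM in D1 dorsal, 101 to 243 in D1 ventral, 2563 to 4510 in D2 dorsal and 1530 to 2728 CPM in D2 ventral striatum. Of 3 interneuron markers tested 2 were positive (median 1.23), and of 4 D1 markers 1 was. Their part in the values of Peg10 and Blcap was not tested.

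Prefrontal cortex differed from both striatal regions in most of the genes, as it did in most genes overall. Against D1 dorsal striatum 21 of 30 were called, 12 higher and 9 lower in cortex, beside 54.8% of all 11654 genes, 32.3% higher and 22.5% lower. Against D1 ventral striatum the test called 23 of 30, with 7 higher and 16 lower, beside 62.8% of 11749 genes, 27.7% higher and 35.1% lower. The D1 cortical libraries enter both comparisons. TMM scaling turned the balance over all genes against dorsal striatum to 26.8% higher and 29.8% lower, and left 11 imprinted genes higher and 9 lower, Copg2 being lost. Against ventral striatum TMM scaling gave 30.7% higher and 31.3% lower over all genes, and median-ratio scaling 32.2% and 29.9%, and each gave 7 imprinted genes higher and 15 lower, Rasgrf1 being lost. Cortical glutamatergic markers (448 to 772 CPM against 13.7 to 107 CPM in D1 striatum), interneuron markers (Sst, Npy, Pvalb and Vip, 80.1 to 239 against 5.82 to 55.9 CPM) and astrocyte markers (Aqp4, Gfap, Aldh1l1 and Slc1a3, 8.16 to 50.9 against 1.9 to 12.1 CPM) also differed. The part of these cells in the differences below was not tested.

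Herc3 and its inner gene Nap1l5 stood out as higher in cortex. Herc3 ran from 81.6 to 143.5 CPM in cortex (median 113) against at most 53.9 CPM in any D1 striatal library, a difference of 1.49 from dorsal (SE 0.084, adjusted p = 7.32e-19, limma) and 1.28 from ventral striatum (SE 0.071, adjusted p = 1.95e-19, limma). Nap1l5 ran from 95.1 to 157 CPM (median 126), above every D1 dorsal library, and 16 of 19 cortical libraries were above all D1 ventral libraries. Its differences were 1.51 (SE 0.091, adjusted p = 5.14e-18, limma) and 0.62 (SE 0.073, adjusted p = 1.31e-09, limma). Within the striatum Nap1l5 was called in both receptors and Herc3 only weakly in D1, whereas in cortex both were higher.

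Meg3 was also higher in cortex but uneven. It ran from 47.1 to 792 CPM with a median of 106 CPM, and 7 of 19 libraries were above all D1 dorsal libraries. Replicates 11 to 14, all EM, held 546 to 792 CPM, and the other 15 held 47.1 to 270.4 CPM. The difference was 1.64 from dorsal (SE 0.34, adjusted p = 7.89e-05, limma) and 1.65 from ventral striatum (SE 0.34, adjusted p = 6.33e-05, limma). Without those 4 libraries it was 1.04 (adjusted p = 0.000182) and 1.05 (adjusted p = 0.000148), a comparison chosen after seeing the data. Rtl1, in the same domain, was also highest in the same 4 libraries, 1.95 to 3.07 CPM against at most 0.947 CPM in the other 15. Dlk1 was not, at 0.0651 to 0.363 CPM in the 4 and up to 1.71 CPM in the others.

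Igf2, insulin-like growth factor 2, was near the limit of the filter, and 13 of 19 cortical and 2 of 15 D1 dorsal libraries reached 1 CPM, the 15 libraries that the filter asks for. It ran from 0 to 4.73 CPM in cortex (median 1.29) and from 0 to 1.3 CPM in D1 dorsal striatum (median 0.272), a difference of 1.16 (SE 0.23, adjusted p = 3.94e-05, limma). Of its exonic bases 64.5% are shared with other annotated genes. In the 4 libraries high in Meg3 it was 2.13 to 4.73 CPM and in the other 15 at most 2.39 CPM, and without those 4 libraries it no longer passed the filter. Among other growth genes, Cdkn1c, the cell cycle inhibitor p57, was at 0.596 to 2.18 CPM in cortex (median 1.19) against medians of at most 0.102 CPM in the striatal groups.

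In the Prader-Willi domain Snrpn, Snurf and Ndn were higher in cortex, and Ube3a and Magel2 were not. Snrpn was at a median of 587 CPM, 0.37 above dorsal (SE 0.10, adjusted p = 0.00272, limma) and 0.33 above ventral striatum (SE 0.080, adjusted p = 0.000437, limma). Snurf was 0.38 and 0.44 above them (adjusted p = 0.000555 and 1.06e-05, limma), sharing its reads with Snrpn. Ndn was 0.74 above dorsal (SE 0.18, adjusted p = 0.000784, limma) and 0.43 above ventral striatum (SE 0.16, adjusted p = 0.0211, limma), the latter not called in EM libraries (0.43, adjusted p = 0.0572). A single cortical library reached 141 CPM for Ndn, and the median was 34.9 CPM. Ube3a was not called in either comparison (adjusted p = 0.924 and 0.0515, limma). Against ventral striatum its difference of -0.30 became a call with the name code (-0.26, adjusted p = 0.0300), with the share covariate (-0.32, adjusted p = 0.0300) and scaled to reads in genes (-0.31, adjusted p = 0.0367). Magel2, tested only without the filter, was lower in cortex than in ventral striatum, at -1.03 (adjusted p = 1.01e-06, limma), and at 0.19 from dorsal striatum (adjusted p = 0.294, limma).

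Lower in cortex were genes high in the striatum. Commd1 ran from 14.6 to 28.9 CPM in cortex, below every D1 striatal library, with -1.57 from dorsal (SE 0.091, adjusted p = 1.90e-18, limma) and -0.66 from ventral striatum (SE 0.072, adjusted p = 1.51e-10, limma). Inpp5f ran from 44.3 to 67.3 CPM, below every D1 striatal library, with -0.99 (SE 0.069, adjusted p = 5.00e-16, limma) and -1.24 (SE 0.062, adjusted p = 6.83e-21, limma). Ppp1r9a ran from 67.7 to 184 CPM, with -1.45 (SE 0.11, adjusted p = 1.89e-15, limma) and -1.09 (SE 0.10, adjusted p = 2.70e-12, limma). Sgce, on the other side of Peg10, ran from 1.85 to 5.98 CPM and differed by -0.81 (SE 0.12, adjusted p = 4.06e-07, limma) and -0.98 (SE 0.13, adjusted p = 1.10e-08, limma).

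Genes enriched in ventral striatum took different places in cortex. Dlk1 and Peg10 were lower in cortex than in both striatal regions, Dlk1 by -2.41 (SE 0.21) and -6.26 (SE 0.17), Peg10 by -0.65 (SE 0.10, adjusted p = 7.24e-07, limma) and -3.88 (SE 0.12, adjusted p = 5.85e-28, limma). In both comparisons Dlk1 passed the filter only through the striatal libraries, where it is high, so it had to differ, as did Ddc against ventral striatum. Nnat lay between the striatal regions, at 19.0 to 94.8 CPM (median 37.9), 1.23 above dorsal (SE 0.26, adjusted p = 8.43e-05, limma) and -1.82 from ventral striatum (SE 0.18, adjusted p = 1.78e-11, limma). Usp29 was lower in cortex than in both regions, at -0.30 (SE 0.084, adjusted p = 0.00263, limma) and -1.24 (SE 0.071, adjusted p = 4.72e-19, limma). Its neighbour Peg3 was not called against dorsal striatum (-0.01, adjusted p = 0.909, limma) and was lower than ventral striatum by its difference of -0.49 (SE 0.073, adjusted p = 2.78e-07, limma). Impact was 0.72 above dorsal striatum (SE 0.084, adjusted p = 1.06e-09, limma) and at 0.03 from ventral striatum (adjusted p = 0.751, limma).

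Neighbouring genes were also compared library by library, after group means were removed, for 15 pairs over 79 libraries. P-values are from 100000 permutations within groups, two-sided, where 1e-05 is the smallest they can give, with Benjamini-Hochberg adjustment over the 15 pairs. By Pearson's r 8 pairs were called, 6 positive and 2 negative. Pairs of genes that are not neighbours were not tested, so the share of calls among other pairs is not known. Snrpn and Snurf, which share exons, had r = 0.69 (p = 1e-05, adjusted p = 5e-05) and Spearman's rho = 0.56 (p = 1e-05, adjusted p = 7.5e-05). Without the 2 libraries farthest from the Snrpn median r was 0.67, and it was 0.85 in the 53 EM libraries.

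Peg3 and Usp29, with starts 147 bases apart, had r = 0.51 (p = 1e-05, adjusted p = 5e-05) and rho = 0.44 (adjusted p = 0.00045), positive in all 5 groups, 0.45 without the 2 farthest libraries and 0.49 in EM libraries. Peg10 and Sgce, with starts 99 bases apart, had r = 0.13 (p = 0.266, adjusted p = 0.4) and rho = 0.15 (adjusted p = 0.361), with values from -0.24 to 0.74 among the groups. So of these closely spaced pairs on opposite strands, Peg3 and Usp29 varied together from library to library, and for Peg10 and Sgce no relation was detected over all libraries.

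Mest and Copg2 had r = 0.48 (p = 1e-05, adjusted p = 5e-05) and rho = 0.51, with r = 0.28 after scaling to the reads in genes (adjusted p = 0.0316). Nnat and Blcap had r = 0.41 (p = 0.00049, adjusted p = 0.00147) and rho = 0.40, with r = 0.74 in EM libraries. Zrsr1 and Commd1 had r = 0.39 (p = 0.00066, adjusted p = 0.00165) and rho = 0.41, but r = 0.26 after that scaling (adjusted p = 0.0617). Sgce and Ppp1r9a were at r = 0.26 (p = 0.0243, adjusted p = 0.0455) and rho = 0.33, but 0.11 in EM libraries (adjusted p = 0.688) and 0.12 after that scaling (adjusted p = 0.448). Dlk1 and Meg3 had r = -0.09 (p = 0.449, adjusted p = 0.561) and rho = -0.05, and Nap1l5 and Herc3 r = -0.19 (p = 0.108, adjusted p = 0.180) and rho = -0.12, with values from -0.64 in D2 ventral striatum to 0.53 in cortex.

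The negative pairs were less even. Ndn and Snrpn had r = -0.43 (p = 0.00032, adjusted p = 0.0012) but rho = -0.23 (adjusted p = 0.104), from -0.75 in D2 dorsal to 0.44 in D1 ventral striatum. Mcts2, a retrogene of a translation factor, and its host H13, the signal peptide peptidase gene, had r = -0.31 (p = 0.0125, adjusted p = 0.0268) and rho = -0.14 (adjusted p = 0.408), and r = -0.21 without the 2 farthest libraries (adjusted p = 0.142). The call of the latter pair was thus lost without those libraries, and also in EM libraries (r = -0.22, adjusted p = 0.376). After scaling to the reads in genes it was made (-0.33, adjusted p = 0.0260). All pairs share library depth and share of reads in genes, and after scaling to the reads in genes 6 of the 15 were called, Zrsr1 with Commd1 and Sgce with Ppp1r9a being lost.

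**Figure D4:**
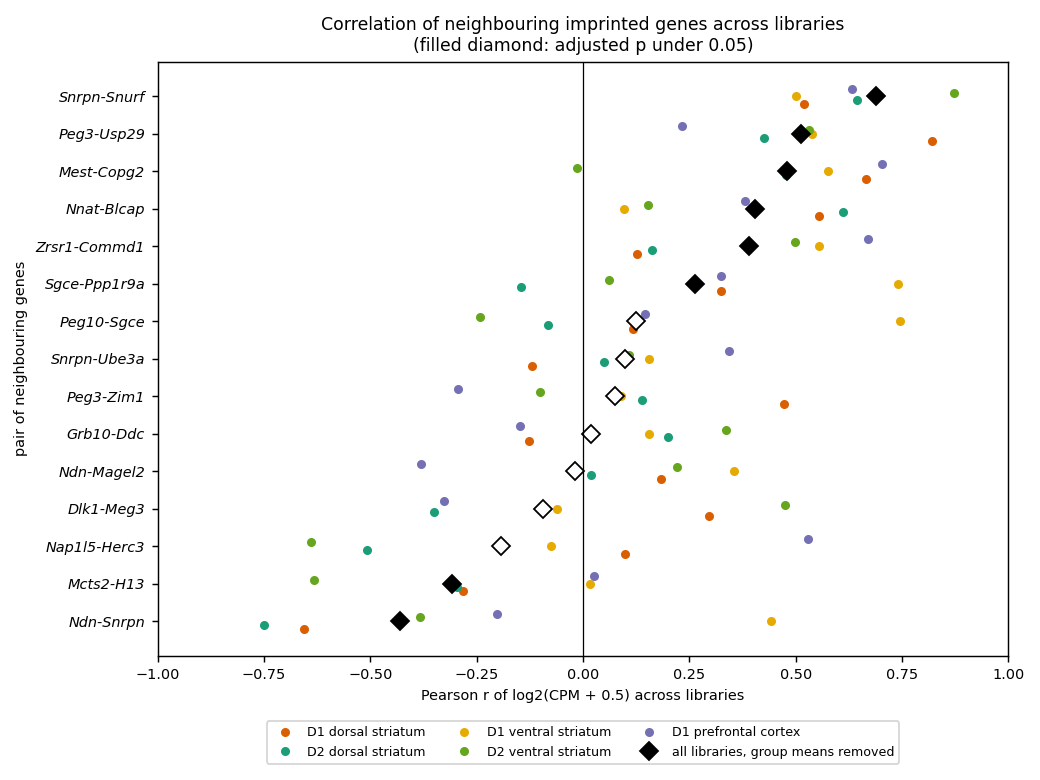
Pearson's r of log2(CPM + 0.5) across libraries for 15 pairs of neighbouring imprinted genes, within each of the 5 groups (coloured points) and over all 79 libraries after group means were removed (diamonds, filled where the adjusted p is under 0.05). Snrpn-Snurf and Peg3-Usp29 are positive in all groups, while Peg10-Sgce, Dlk1-Meg3 and Nap1l5-Herc3 spread to both sides of 0.

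The number of males in the pool, 2 against 1, was tested over 77 libraries with group as a term, leaving out the 2 cortical libraries whose label does not give it. Of 29 imprinted genes 0 were called by limma, and 8 had an unadjusted p under 0.05, against 13.9% of all genes. In EM libraries 13 of the 29 had such a p, against 22.4% of all genes, and with the name code as a covariate 12, against 20.6%. Over 11441 genes 0.0961% were called, 0.0524% higher and 0.0437% lower with 2 males. By edgeR 0 of the 29 were called as well, 9 of them with an unadjusted p under 0.05. The balance of the few calls over all genes moved with the scaling, to 19 higher and 8 lower under median-ratio scaling. Peg3 was called with the name code as a covariate (-0.16, adjusted p = 0.0493) and stood at -0.08 (adjusted p = 0.503, limma) without it.

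Other imprinted genes outside the 45 were read from the same fits for comparison. Of 23 in the table, 8 were tested between dorsal and ventral striatum in D1 and 9 in D2. In D1 3 were lower and 1 higher in dorsal striatum, and in D2 2 were lower and 2 higher, beside the 24.5% lower and 10.1% higher of all genes in D1 and 20.6% and 7.93% in D2. Gnas, which encodes a stimulatory G protein subunit, was lower in dorsal striatum by its differences of -0.54 in D1 (SE 0.13, adjusted p = 0.00155, limma) and -1.19 in D2 (SE 0.11, adjusted p = 1.67e-10, limma). Zdbf2 was lower at -0.70 in D1 (adjusted p = 6.02e-08, limma) and -0.96 in D2 (adjusted p = 1.78e-08, limma). Sfmbt2, a Polycomb-related gene, was lower at -0.71 in D1 (adjusted p = 0.00193, limma). Slc22a3, an organic cation transporter near Igf2r, was higher in dorsal striatum, at 1.01 in D1 (adjusted p = 9.42e-11, limma) and 1.20 in D2 (adjusted p = 1.64e-05, limma), while Igf2r itself was called only in D2. In cortex 7 of 10 were higher and 2 lower than in D1 dorsal striatum, beside 32.3% and 22.5% of all genes, with Gnas at 2.51 (SE 0.12, adjusted p = 7.30e-21, limma) and Slc22a3 at -2.85 (SE 0.12, adjusted p = 3.53e-23, limma).

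Genes of 2 linked pathways were read likewise. Of 6 tested genes that keep imprints in place, 3 were lower and 0 higher in dorsal striatum in D1 and 1 lower and 0 higher in D2, beside 24.5% and 20.6% of all genes lower. Median-ratio scaling left 1 lower in D1 and 0 in D2. Dnmt1, the methyltransferase that copies methylation after replication, was lower in D1 at -0.40 (SE 0.070, adjusted p = 3.05e-05, limma), and Zfp445, a zinc finger partner of imprint control, at -0.29 in D1 (adjusted p = 0.00645, limma) and -0.34 in D2 (adjusted p = 0.0204, limma). Zfp57 had medians of at most 0.194 CPM in the striatal groups and 1.06 CPM in cortex. Of 6 tested genes of insulin and insulin-like growth factor signalling, the pathway in which Igf2, Igf2r and Grb10 act, 3 were lower and 0 higher in dorsal striatum in D1, and 2 lower and 1 higher in D2, beside the same shares. Median-ratio scaling and edgeR each gave 3 lower and 1 higher in D1 and 2 lower and 2 higher in D2. Irs2, an adaptor of the insulin receptor, was lower in D1 at -0.89 (adjusted p = 1.61e-05, limma). Irs1 and Igfbp4 were lower in both receptors, Irs1 at -0.80 in D1 (adjusted p = 0.00361, limma) and -0.89 in D2 (adjusted p = 0.00457, limma), and Igfbp4 at -0.78 and -1.02 (adjusted p = 0.000330 and 0.000419, limma).

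The remaining low genes are described by their levels. Slc38a4, an amino acid transporter gene, had medians of 0.839 and 0.968 CPM in D1 dorsal and ventral striatum and 0.129 and 0.25 CPM in D2, with overlapping ranges. Without the filter its D1 minus D2 difference was called, at 1.04 in dorsal (adjusted p = 4.39e-09, limma) and 0.80 in ventral striatum (adjusted p = 0.000305, limma). Airn, the noncoding RNA antisense to Igf2r, and Mkrn3, a ring finger gene of the Prader-Willi domain, had medians of at most 0.25 and 0.0892 CPM. Plagl1, a zinc finger gene that regulates other imprinted genes, had medians of 3.63 to 6.22 CPM. Without a covariate limma called it in no comparison on the deposited scale with all libraries. Without D2 ventral striatum replicate 2 it was lower in D2 dorsal than ventral striatum (-0.54, adjusted p = 0.0474). It was lower in D1 dorsal than ventral striatum with the share covariate (-0.24, adjusted p = 0.0260), and its D1 minus D2 difference in ventral striatum was called in edgeR (-0.45, adjusted p = 0.0444). H13 medians were 3.61 to 5.10 CPM and it was not called in any comparison.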

How the data were processed

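The authors deposited 1 table of CPM per gene and library. Per the submitters' processing notes, Trim Galore 0.4.2, cutadapt 1.9.1, FastQC, HISAT2 and the build GRCm38 were used, and the counter and annotation are not given in the sources used here. The deposited CPM columns sum to 309566 to 401527, so the authors' total was larger than the reads in listed genes, and 100.0% of values were whole reads within 0.01 reads once divided by the value of 1 read, which gave the depth and the recovered reads. Genes at 1 CPM or more in as many libraries as the smaller group holds were tested with limma 3.58.1 (trend) on log2(CPM + 0.5) in the compared groups, with Benjamini-Hochberg adjustment over all genes tested. Alternatives were pseudocounts of 0.1 and 1, no filter, EM libraries only, name code or the share of reads that fall in genes as covariate, scaling to reads in genes, median-ratio scaling, edgeR 4.0.16 (quasi-likelihood, TMM) on recovered reads, leaving out D2 ventral striatum replicate 2 and, chosen after seeing the data, leaving out 4 prefrontal cortex libraries and blocking EM libraries by sets of consecutive names. Correlations of neighbouring genes, after group means were removed, had 100000 permutations. Both models were tested on simulated data. Gene positions are GENCODE M21. The imprinted genes and lists were chosen with earlier results of these data known. Full statistics were meant for imprinted genes at 5 CPM or more on average in a compared group and called, and genes of other lists for the 2 largest changes in a direction. Ddc, Zim1, Igf2 and the uncalled neighbours were added after their values were seen.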

Additional observations from a re-analysis of the deposited data

Results flagged for a closer look

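The receptor difference changed between dorsal and ventral striatum for 2 imprinted genes by the test of that change itself, limma's interaction term over the 4 striatal groups. Peg10 had a value of -0.81 (adjusted p = 0.0250), its D1 minus D2 difference being -0.12 in dorsal and 0.69 in ventral striatum. Blcap had a value of -0.74 (adjusted p = 0.0410), with 0.15 in dorsal and 0.88 in ventral striatum. Over all genes 2.64% passed this test. Neither gene passed it in EM libraries (Peg10 -0.58, adjusted p = 0.192, and Blcap -0.66, adjusted p = 0.277). Blcap also missed the threshold without the filter (adjusted p = 0.0629), with the share of reads that fall in genes as covariate (-0.56, adjusted p = 0.0682), scaled to reads in genes (adjusted p = 0.0510) and in edgeR (adjusted p = 0.0511).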

How the results depend on the processing

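No difference of an imprinted gene that was called changed its direction under the alternatives run. The counts of imprinted genes called moved by over 1.5 times in 3 cases. Between D1 and D2 ventral striatum 9 were called with the share of reads that fall in genes as covariate, against 19, and 8 of the 9 were among the 19. Over all genes that covariate gave 1218 calls, against 5443. For the receptor by region interaction 0 of 36 were called by limma in EM libraries, 9 of them with an unadjusted p under 0.05 (15.5% over all genes), and edgeR in all libraries called 2. For the number of males 1 was called with the name code as a covariate, against 0. Over all genes, D1 against D2 in dorsal striatum gave 1389 calls in EM libraries and 1658 with the name code, against 2871, and the interaction gave 480 with the name code, against 313. The number of males gave 11 calls over all genes, 251 in EM libraries, 278 with the name code, 25 with the share of reads or in edgeR, 27 under median-ratio scaling, 1 without the 4 prefrontal cortex libraries and 0 without the filter. The cause was not tested in any of these cases. Of 242 differences of single genes, between 215 and 241 kept their side of the threshold under each alternative run on all of them, the fewest with the share of reads as a covariate and the most with a pseudocount of 1. For genes near 1 CPM or below, depth and the filter set what can be called: without the filter Asb4, Rtl1, Magel2 and Zim1 were called between dorsal and ventral striatum in both receptors, Slc38a4 between D1 and D2 in both regions, and Dio3 in the interaction. The labels do not state which libraries share mice, but names of EM libraries run in consecutive numbers across regions with the same receptor and sex label, in 11 D1 and 8 D2 sets. Dorsal and ventral libraries of a set had correlations of their deviations from the group means of 0.04 to 0.41 in D1, over 0.1 in 9 of 11 sets, and of -0.48 to 0.49 in D2, over 0.1 in 5 of 8, and 5 of 11 and 2 of 8 dorsal libraries correlated best with their own set. In D1 each set's correlation was above the median of its dorsal library with ventral libraries of other sets, which was -0.04 to 0.01. In D2 that median was -0.15 to 0.11, and some sets were below it. Cortical libraries were above the like median with ventral striatum in every set, and with dorsal striatum in only some. So D1 dorsal and ventral libraries of a set tended to deviate together, and whether they share mice is not stated. The main tests treat libraries as unpaired. A fit of EM libraries with the set as a replicate block, chosen after seeing the data, called 20 imprinted genes between dorsal and ventral striatum in D1 and 13 in D2, against 16 and 13 in EM libraries without the block, and 17 and 24 between cortex and dorsal and ventral striatum. For the interaction that block gave 2 calls, Meg3 (0.79, adjusted p = 0.0216) and Zim1 (1.25, adjusted p = 0.0239), and neither Peg10 (-0.58, adjusted p = 0.140) nor Blcap (-0.66, adjusted p = 0.161).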
